A study of Mus musculus with 6 samples.

Results

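The genes described here mark the birth and early differentiation of neurons: proneural transcription factors, the factors and RNA-binding proteins of young neurons, and the cytoskeletal, adhesion, secretory and receptor genes that such neurons switch on. They are 41 genes selected by symbol, and the list was prompted by the lower levels of Cntn2, Nefm and Chgb in Pax9-null embryos, so those 3 are given as values without a test. Of the 41, 37 were rows of a table of 14647 genes, and Onecut1, Prph, Scg2 and Celsr3 were not among its rows. A mean level of at least 0.5 RPKM (reads per kilobase of gene, scaled to library size) over the 6 libraries was required for testing, which 34 members reached, 31 of them besides the 3 that prompted the list. Snap25, Syt1 and Ntrk3 fell below it, at means of 0.401, 0.239 and 0.203 RPKM.

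RNA was sequenced from the pharyngeal region of mouse embryos at embryonic day 9.5, staged by somites and taken between the first and second arch and the base of the heart. There were 3 Pax9-null and 3 wild-type (Pax9+/+) embryos on a C57Bl/6J background and 1 embryo to a library. The extraction text in the sample labels describes sorted cells instead, and the tissue given here is that of the study's methods and of the other labels. Pax9 encodes a paired-box transcription factor of the pharyngeal endoderm, and the null allele is a germline one, so that every cell of a mutant embryo carried it. The question put to these genes is whether the proneural factors and the structural genes of young neurons differed alike between the genotypes.

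In the embryo, proneural factors of the basic helix-loop-helix (bHLH) family commit progenitors to a neuronal fate and are switched off soon afterwards, while the cytoskeletal and adhesion genes appear in the postmitotic neuron as it extends an axon. At this stage neurons arise in the neural tube and in the cranial ganglia, whose sensory neurons come from placodes and neural crest. Dissected pharyngeal tissue can hold ganglion cells, axons and pieces of hindbrain, and a bulk library cannot tell fewer neurons from less RNA per neuron.

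As a view of the regulatory sequence next to these genes, the 250 bases before the RefSeq start (build GRCm38.p6) are shown for 3 members with lower levels in the Pax9-null libraries, picked for holding the E-box CAGCTG, a sequence that bHLH factors can bind. The windows of Scg3 and L1cam, which also passed the test for lower levels given further on, held no CAGCTG, and those of Elavl2, Elavl4 and Neurod4, which did not pass it, held it. The 3 shown are Elavl3 (chr9:22052024-22052273, minus strand), Ina (chr19:47014431-47014680, plus strand) and Chga (chr12:102554691-102554940, plus strand), written from 5' to 3' with the E-box, the GC box GGGCGG and the letters TATAAA in capitals on either strand.
Elavl3: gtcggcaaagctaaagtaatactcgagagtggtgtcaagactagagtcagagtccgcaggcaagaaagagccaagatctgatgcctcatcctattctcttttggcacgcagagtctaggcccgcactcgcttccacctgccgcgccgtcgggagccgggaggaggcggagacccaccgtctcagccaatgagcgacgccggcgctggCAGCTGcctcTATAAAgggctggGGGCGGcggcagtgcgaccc
Ina: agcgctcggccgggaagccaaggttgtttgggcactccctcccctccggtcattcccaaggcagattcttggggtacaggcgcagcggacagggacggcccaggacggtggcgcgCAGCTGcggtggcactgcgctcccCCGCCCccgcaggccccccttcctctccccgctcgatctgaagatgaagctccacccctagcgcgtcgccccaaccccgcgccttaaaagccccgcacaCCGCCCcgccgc
Chga: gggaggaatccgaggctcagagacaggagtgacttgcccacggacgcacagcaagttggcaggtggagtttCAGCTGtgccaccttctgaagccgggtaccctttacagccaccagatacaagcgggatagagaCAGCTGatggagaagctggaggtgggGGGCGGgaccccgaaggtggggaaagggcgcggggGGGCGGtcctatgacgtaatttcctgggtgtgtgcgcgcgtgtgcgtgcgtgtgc
The E-box lay 43 bases before the start in Elavl3 and 135 bases before it in Ina, and Chga held the letters at 179 and 116 bases. RefSeq windows of 300 bases (250 before and 50 after the start) were found for 30 of the 41 members, 42 windows in all. CAGCTG, which reads the same on both strands, was in 14 of the 42 windows (33.3%) and in 16.3% of all 32851 windows. The E-box CAGATG was in 21.4% of the member windows and 17.2% of all windows, and TATAAA was in 11.9% and 13.6%. GGGCGG was in 69.0% of the member windows against 35.7% of all, and the median GC content of the windows was 61.3% against 52.7%. The letters TTCAGCACC, one part of the element bound by the repressor Rest, were in the windows of Celsr3 and Scg2, that is in 4.76% of the member windows and 0.371% of all. No motif searched contains another, and a match of letters is not a binding site.

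The genotype labels were checked first on Pax9 itself. Its level was -0.43, -0.63 and -0.59 log2 RPKM in the Pax9-null libraries and 0.63, 0.71 and 0.96 in wild-type, so that the groups did not overlap. Pax9 reads numbered 37 to 43 against 99 to 123, and its level in the null libraries was 40.1% of wild-type, counted over the whole gene. The effective library sizes were 11509885 to 11728226 reads in Pax9-null and 12352685 to 12692347 in wild-type.

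Wild-type replicate 3 stood apart from the other libraries. The summed level of 9 cardiomyocyte genes was 78.3 RPKM in it and 1134 to 1496 RPKM in the other 5 libraries. It was also the library richest in neuronal transcripts: 32 of the 34 tested members (94.1%) were highest of the wild-type libraries in replicate 3, against 28.6% of all tested genes, and Phox2a and Gap43 were the exceptions, highest in replicate 1. The members were at a median 0.64 log2 units higher in replicate 3 than in the mean of the other wild-type libraries, while the median over all genes was 0.00. The 14 tested neural tube progenitor genes shared this in part, with 9 (64.3%) highest in replicate 3. The part that tissue composition plays in the differences between genotypes was not tested, and the group medians and counts are given without that library too.

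**Figure D1:**
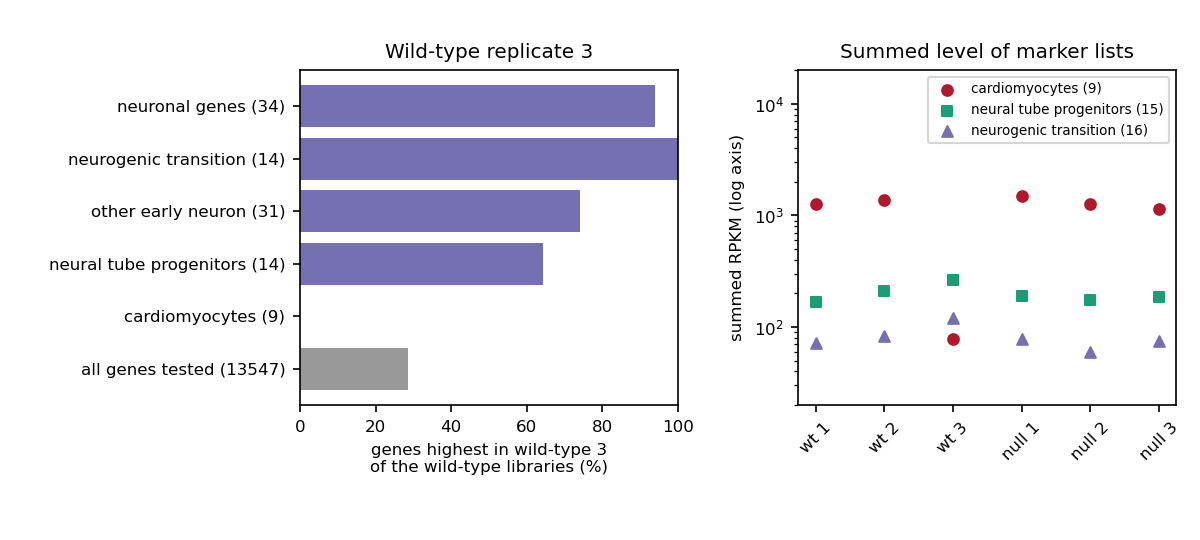
Left, percentage of the tested genes of each list (number in brackets) whose highest wild-type value was in wild-type replicate 3. Right, summed RPKM of 3 marker lists in each library on a log axis. The neuronal genes reached 94.1% against 28.6% of all genes, and the cardiomyocyte sum of that library was 78.3 RPKM.

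Over the 31 tested members besides the prompting genes, the median log2 fold change (Pax9-null over wild-type) was -0.61, and 29 of the 31 were below 0, beside a median of 0.00 over all 13547 tested genes. In the limma test, at an adjusted p of at most 0.1 over all genes, 8 of the 31 were lower in Pax9-null embryos and 0 were higher, and 12.0% of all tested genes were called lower and 14.7% higher. At an unadjusted p under 0.05, 15 of the 31 were lower and 0 higher. The share of all tested genes at that threshold was not worked out, so this count has no background. In 14 of the 31 every Pax9-null library lay below every wild-type library and in 0 every one lay above, compared with 20.1% and 21.8% of all tested genes. The list was prompted by this contrast, and genes of a shared cell type move together, so these counts are a description only. Without wild-type replicate 3, 29 of the 31 could be tested, the median was -0.35, 20 were below 0 and 4 were called lower (Elavl3, Ina, Ngfr and Ret), against 6.65% of all genes. Dropping Pax9-null replicate 1, 2 or 3 instead left 1, 5 and 0 members called, out of 298, 3050 and 168 genes called in the whole table. Dropping wild-type replicate 1 (30 members tested) or 2 gave 6 and 12, out of 1799 and 3579 genes called. Where 0 were called (without Pax9-null replicate 3), 10 of the 31 were lower and 0 higher at an unadjusted p under 0.05. That count has no background either.

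**Figure D2:**
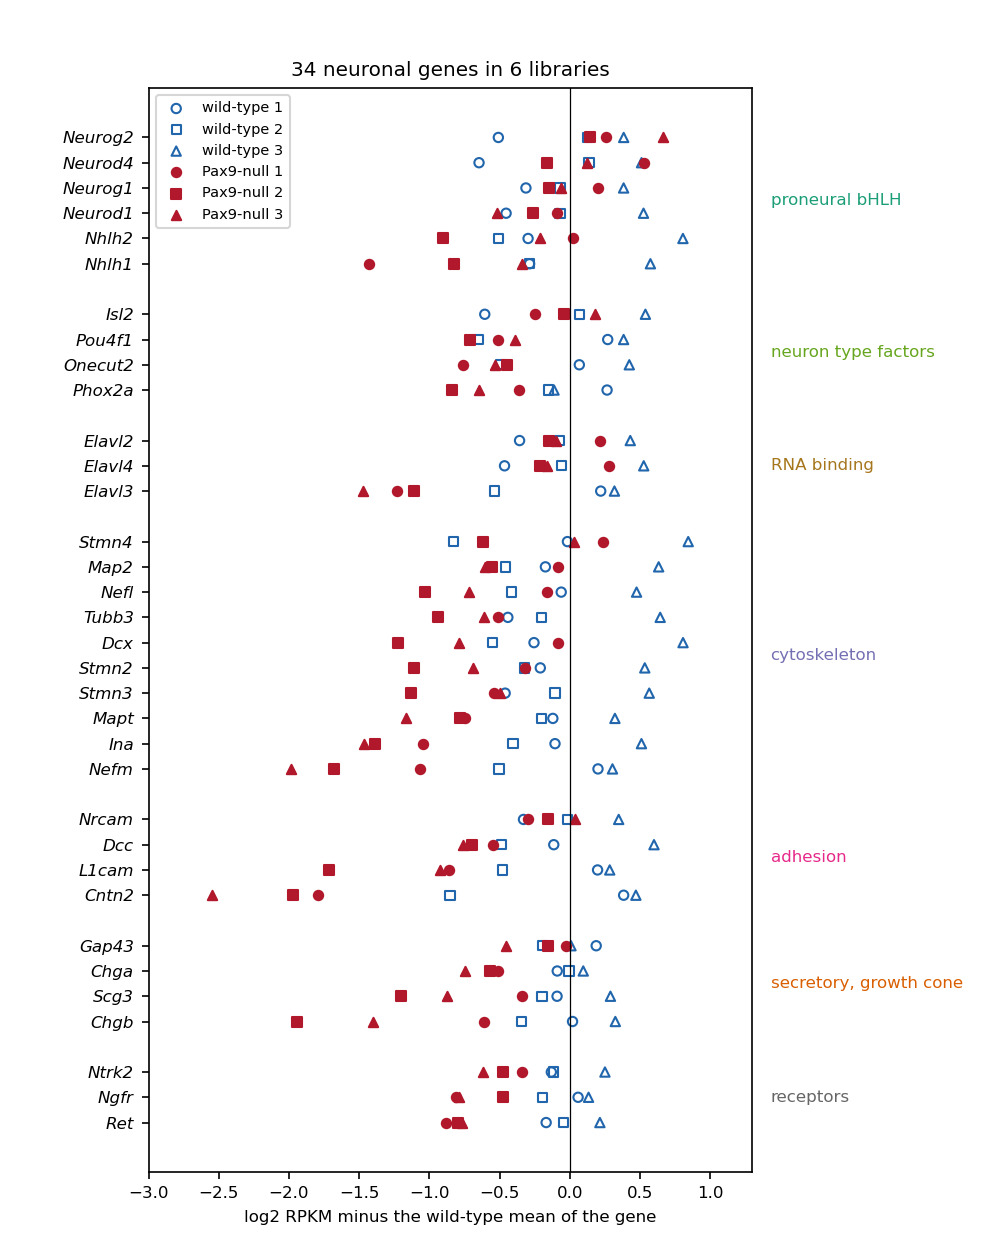
Level of the 34 tested members in every library, as log2 RPKM minus the wild-type mean of the gene, grouped by role (open blue, wild-type; filled red, Pax9-null; marker shapes, replicates). Wild-type replicate 3 (open triangles) was the highest wild-type value of 32 genes, and the Pax9-null points of Cntn2, Nefm, Ina and Elavl3 lie to the left of every wild-type point.

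The 6 bHLH factors grouped here as proneural include early neuronal differentiation factors beside Neurog1 and Neurog2. The 6 did not separate the genotypes as a group. The libraries overlapped for 5 of them and 0 of 6 were called by limma (1 at an unadjusted p under 0.05). Their log2 fold changes ran from -0.86 to 0.35, with a median of -0.15. Neurod4, which acts downstream of the neurogenins, was the most abundant of them, at 4.27, 3.58 and 3.87 log2 RPKM in Pax9-null replicates 1 to 3 and 3.10, 3.88 and 4.26 in wild-type replicates 1 to 3. These ranges overlapped almost completely, and the log2 fold change was 0.16 (SE 0.29, adjusted p = 0.726). Neurog1 and Neurog2, which specify the cranial sensory neurons of different ganglia, had log2 fold changes of -0.003 (SE 0.20) and 0.35 (SE 0.24). The differentiation factor Neurod1 was at -0.29 (SE 0.25) and the later bHLH gene Nhlh2 at -0.36 (SE 0.37). Nhlh1, a bHLH factor of newly born neurons, had the lowest value of the group at -0.86 (SE 0.35, adjusted p = 0.126). It was the only one of the 6 whose groups did not overlap, with 15 to 33 reads in Pax9-null and 36 to 67 in wild-type. Without wild-type replicate 3 the median of the 6 factors changed sign, to 0.11.

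Transcription factors of neuron types were low in this tissue and 0 of the 4 tested were called by limma (1 at an unadjusted p under 0.05). Isl2, a LIM-homeodomain factor of motor and sensory neurons, had the highest mean of the 4. Its levels were 0.11, 0.32 and 0.54 log2 RPKM in Pax9-null and -0.24, 0.43 and 0.90 in wild-type, with the Pax9-null values inside the wild-type range and a log2 fold change of -0.04 (SE 0.30, adjusted p = 0.940). The sensory factor Pou4f1 was at -0.54 (SE 0.32) and Onecut2 at -0.58 (SE 0.27). Phox2a, which is required for epibranchial and autonomic neurons, was at -0.61 (SE 0.24, adjusted p = 0.110), with 12 to 17 reads in Pax9-null and 21 to 29 in wild-type. The Phox2a groups did not overlap, although these counts are too small for a firm size. The median of the 4 factors was -0.56, and -0.36 without wild-type replicate 3.

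Among the RNA-binding proteins of the neuronal Elav family, Elavl3 differed from its relatives. Elavl3 (GRCm38 chromosome 9, 22015005 to 22052023, minus strand, 7 exon blocks) was at -0.69, -0.57 and -0.93 log2 RPKM in Pax9-null and 0.76, 0.01 and 0.86 in wild-type. All 3 Pax9-null libraries were below the lowest wild-type library, and the log2 fold change was -1.27 (SE 0.28, adjusted p = 0.0411), or 41.4% of the wild-type level. Elavl4, the most abundant of the family here, was at 3.46, 2.96 and 3.01 in Pax9-null and 2.71, 3.12 and 3.70 in wild-type. Its groups overlapped, with a log2 fold change of -0.03 (SE 0.25), and Elavl2 was at -0.01 (SE 0.21). Set against Elavl4 within each library, Elavl3 was lower by a log2 ratio of -4.15, -3.53 and -3.94 in Pax9-null and -1.95, -3.11 and -2.84 in wild-type. The ratio thus differed by -1.24 between the genotypes with no overlap, and with 3 embryos of each an exact permutation test cannot give a p below 0.1. With wild-type replicate 3 left out, Elavl3 was at -1.11 (adjusted p = 0.0743). GC content also separates the family, with 54.1% in Elavl3, 38.9% in Elavl4 and 38.5% in Elavl2, a property with which fold changes varied over the whole table. After trends with length and GC content were fitted and removed in each library, the fold difference between Elavl3 and Elavl4 was -0.61. The part of GC content in that difference was not tested further.

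**Figure D3:**
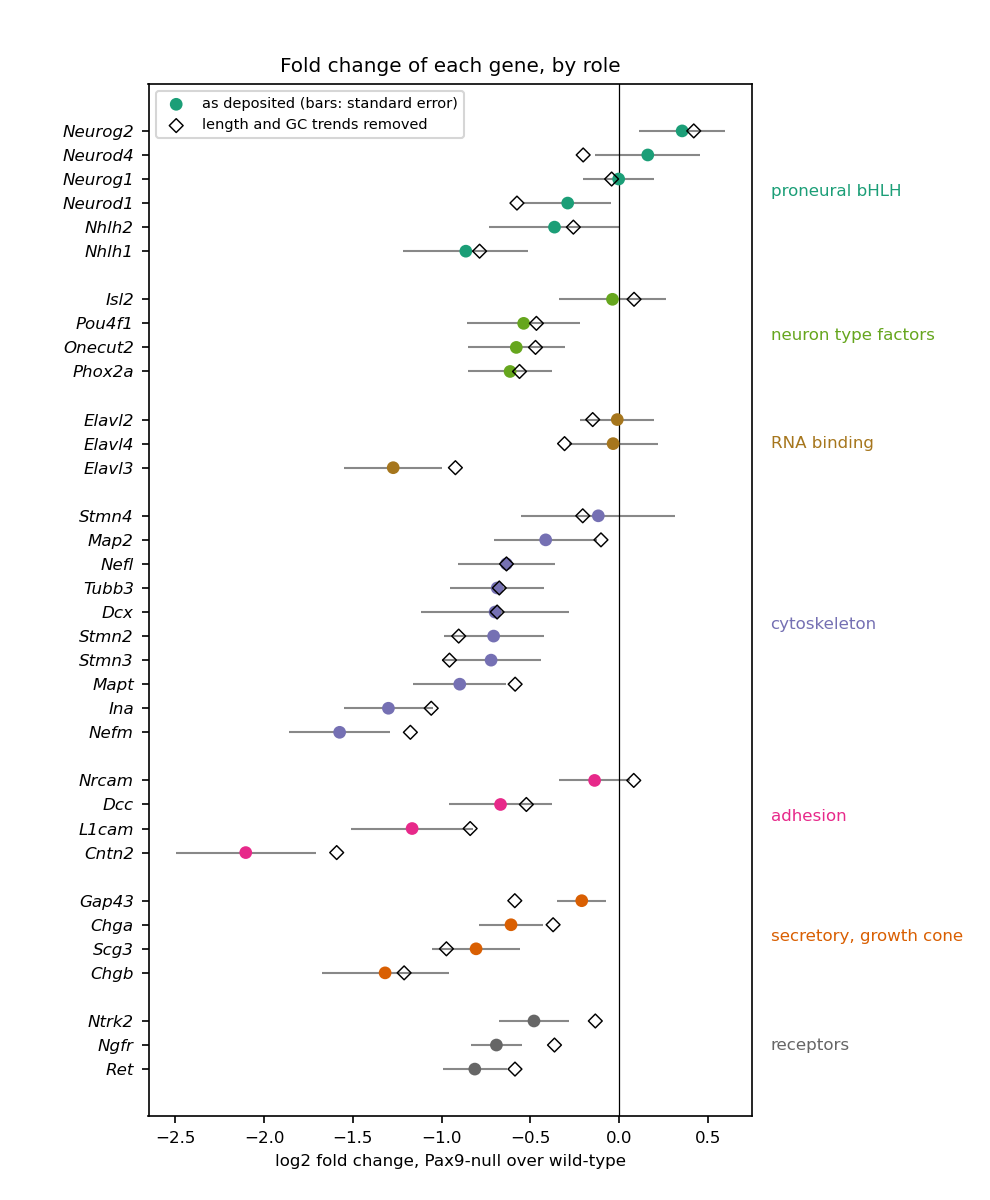
Log2 fold change (Pax9-null over wild-type) of the 34 tested members, by role; filled points are the deposited values with bars of 1 standard error, and open diamonds the values after length and GC trends were removed from each library. The 3 genes that prompted the list (Cntn2, Nefm and Chgb) are included; the proneural factors span -0.86 to 0.35.

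Neurofilaments are the intermediate filaments of axons, and of their 3 measured genes Ina was called lower in Pax9-null tissue, Nefl was not called and Nefm is given as values. Nefm (chromosome 14, 68082590 to 68124846, minus strand), the medium chain and one of the genes that prompted the list, was at 2.11, 1.49 and 1.19 log2 RPKM in Pax9-null and 3.37, 2.67 and 3.47 in wild-type. Its mean in Pax9-null was 33.6% of wild-type, a log2 difference of -1.57. Ina (chromosome 19, 47014698 to 47025327, plus strand), which encodes alpha-internexin, the neurofilament-type protein of early neurons, was at 0.91, 0.57 and 0.49 in Pax9-null and 1.85, 1.55 and 2.47 in wild-type. The groups did not overlap and the log2 fold change was -1.30 (SE 0.25, adjusted p = 0.0336). Nefl, the light chain, was at -0.64 (SE 0.27, adjusted p = 0.140), with the Pax9-null and wild-type ranges overlapping. The within-library log2 ratio of Nefm to Nefl was -1.74, -1.48 and -2.10 in Pax9-null and -0.57, -0.93 and -1.01 in wild-type. This difference of -0.94 is a description, since Nefm prompted the list, and it was -0.54 after length and GC trends were removed. Nefm and Nefl lie on opposite strands and share 1108 bases of annotated exon, 19.2% of Nefm and 32.8% of Nefl, and Ina shares 14.1% of its exon length with Nt5c2 on the other strand. The counting program was run with default settings, which ignore strand, so reads in those stretches cannot be assigned to 1 gene.

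Of the 7 remaining cytoskeletal genes Mapt was called lower, and the log2 fold changes of the other 6 ran from -0.72 to -0.12. Tubb3, the neuron-specific beta-tubulin, was the most abundant member of the whole list. It was at 5.73, 5.30 and 5.63 log2 RPKM in Pax9-null and 5.80, 6.04 and 6.88 in wild-type. Its groups did not overlap, but the gap between the closest libraries was small and the log2 fold change was -0.69 (SE 0.26, adjusted p = 0.110). Mapt (chromosome 11, 104231390 to 104332090, plus strand), which encodes the microtubule protein tau, was at -1.22, -1.25 and -1.63 in Pax9-null and -0.59, -0.67 and -0.15 in wild-type. Those groups were separate, with 28 to 37 reads against 58 to 85 and a log2 fold change of -0.90 (SE 0.26, adjusted p = 0.0630). Without wild-type replicate 3 its mean fell below 0.5 RPKM and it was no longer tested. The stathmins Stmn2 and Stmn3, which regulate microtubule assembly, were at -0.71 (adjusted p = 0.120) and -0.72 (adjusted p = 0.113), while Stmn4 was at -0.12 (SE 0.43). Doublecortin (Dcx), of migrating neurons, was at -0.70 (SE 0.41) and Map2, of dendrites, at -0.41 (SE 0.29).

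Of the adhesion molecules that guide and bundle axons, Cntn2 and L1cam stood lowest and Nrcam close to 0. Cntn2 (TAG-1; chromosome 1, 132509427 to 132543256, minus strand), a prompting gene, was at -0.91, -1.09 and -1.66 log2 RPKM in Pax9-null and 1.27, 0.03 and 1.36 in wild-type. It had 34 to 57 reads in Pax9-null and 117 to 299 in wild-type, and its mean was 23.3% of wild-type, a log2 difference of -2.10. L1cam (chromosome X, 73853778 to 73896105, minus strand), which joins axons into bundles, was at -1.35, -2.19 and -1.41 in Pax9-null and -0.29, -0.96 and -0.20 in wild-type. The groups did not overlap and the log2 fold change was -1.17 (SE 0.34, adjusted p = 0.0639), on 18 to 33 against 46 to 80 reads. It too fell below the filter without wild-type replicate 3. Nrcam, of the same L1 family, had the highest mean of the group, at 1.44, 1.58 and 1.77 in Pax9-null and 1.40, 1.72 and 2.08 in wild-type. Its groups overlapped, with a log2 fold change of -0.14 (SE 0.20, adjusted p = 0.649), and the netrin receptor Dcc was at -0.67 (SE 0.29).

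Granins are the cargo proteins of dense-core secretory vesicles, and the 3 of this list that were measured (Chgb, Chga and Scg3) were all lower. Chgb (chromosome 2, 132781278 to 132795079, plus strand), a prompting gene, was at -0.01, -1.34 and -0.80 log2 RPKM in Pax9-null and 0.62, 0.26 and 0.93 in wild-type. The log2 difference was -1.32, on 12 to 31 reads against 40 to 65. Chga (chromosome 12, 102554969 to 102565028, plus strand) was at -0.02, -0.08 and -0.26 in Pax9-null and 0.40, 0.48 and 0.59 in wild-type, where the narrow ranges did not meet. Its log2 fold change was -0.61 (SE 0.18, adjusted p = 0.0642). Scg3 (chromosome 9, 75643189 to 75684056, minus strand), which sorts granins into vesicles, was at 1.33, 0.46 and 0.79 in Pax9-null and 1.57, 1.47 and 1.95 in wild-type, with a log2 fold change of -0.81 (SE 0.25, adjusted p = 0.0696). Pax9-null replicate 1 was the closest library to wild-type for all 3 granins. Gap43, a protein of growth cones, was abundant in every library, at 4.70 to 5.13 log2 RPKM in Pax9-null and 4.96 to 5.34 in wild-type. Its values overlapped, with a log2 fold change of -0.21 (SE 0.14, adjusted p = 0.310). With wild-type replicate 3 left out, Chga was at -0.56 (adjusted p = 0.138) and Scg3 at -0.66 (adjusted p = 0.143). The synaptic genes Snap25 and Syt1, below the filter, had 16 to 58 reads in any library.

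The 3 tested receptors of growth factors for neurons and their crest precursors separated the genotypes in every library. Ret (chromosome 6, 118151745 to 118197718, minus strand), the signalling receptor of the GDNF family, was at -0.07, 0.01 and 0.04 log2 RPKM in Pax9-null and 0.64, 0.76 and 1.02 in wild-type. Its Pax9-null values were the tightest of any called member (SD 0.06, n = 3), and the log2 fold change was -0.81 (SE 0.18, adjusted p = 0.0420). Ngfr (chromosome 11, 95568818 to 95587735, minus strand), the p75 neurotrophin receptor, also carried by migrating neural crest cells, was at 2.20, 2.54 and 2.22 in Pax9-null and 3.07, 2.82 and 3.15 in wild-type. The log2 fold change was -0.69 (SE 0.14, adjusted p = 0.0372). Ret and Ngfr were still called without wild-type replicate 3, at -0.71 (adjusted p = 0.0858) and -0.62 (adjusted p = 0.0740). Ntrk2, the receptor of brain-derived neurotrophic factor, was at -0.48 (SE 0.20, adjusted p = 0.129). Of 10 tested neural crest and glial genes, 4 were called lower (Sox10, Erbb3, Sox8 and Cdh6), beside 12.0% of all tested genes. The genotypes overlapped for the other 6, and 8 of the 10 were below 0. The summed level of the list was 65.5 to 80.6 RPKM in Pax9-null and 81.7 to 91.9 in wild-type. Without wild-type replicate 3, 2 of the 10 were called lower, against 6.65% of all genes, and the median of the 10 went from -0.33 to -0.31. After length and GC trends were removed 1 was called lower, beside 1.92% of all genes, and the median was -0.26. The share of Ngfr reads that came from crest rather than from neurons was not tested.

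Set side by side, the proneural factors and the structural genes differed in where the genotypes stood. The 15 tested cytoskeletal, adhesion and secretory members besides the prompting genes had a median log2 fold change of -0.69, all 15 were below 0, 5 were called lower and 8 had no overlap, beside the 12.0% and 20.1% of all tested genes. Their mean level relative to wild-type was -0.39, -0.88 and -0.68 in Pax9-null replicates 1 to 3 and -0.14, -0.32 and 0.46 in wild-type replicates 1 to 3. The corresponding means of the 6 proneural factors were -0.09, -0.36 and -0.06 in Pax9-null and -0.42, -0.11 and 0.53 in wild-type, so that all 3 Pax9-null values fell inside the wild-type range. The difference between the group means in the same library was -0.30, -0.52 and -0.62 in Pax9-null and 0.28, -0.21 and -0.07 in wild-type. The Pax9-null libraries were lower on this measure without overlap, by 0.48 on average. No p is given because the list was chosen from this contrast. The median over the structural genes was -0.37 without wild-type replicate 3, over the 13 that could still be tested.

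**Figure D4:**
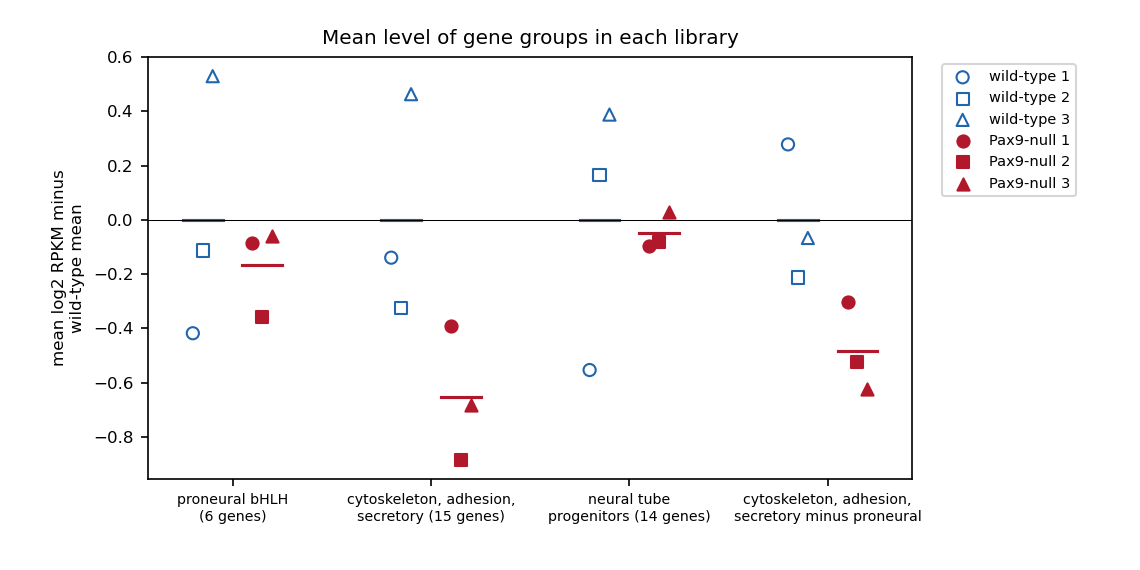
Mean log2 RPKM relative to the wild-type mean in each library for the proneural factors, the structural members without the 3 prompting genes, and the neural tube progenitor markers, with the within-library difference of the first pair at the right (points, libraries; short lines, group means). The difference is -0.62 to -0.30 in Pax9-null and -0.21 to 0.28 in wild-type.

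Over all genes of the table, fold changes fell with GC content and with exon length (Spearman correlations across genes of -0.436 and -0.400 over 13524 genes). Over the 34 tested members, the corresponding correlations were -0.271 and -0.185, which are descriptions over genes that share the same 6 libraries. Of the 31 members, 18 had a GC content above the median of the tested genes (49.3%), and 7 of them were called lower, with a median of -0.65. Of the 13 at or below it, Scg3 was the 1 called lower, and the median was -0.48. The whole table split the same way, with 6762 genes in each part. There were 1417 lower and 433 higher calls above the median GC content and 204 lower and 1551 higher calls at or below it. After length and GC trends were removed from each library, the median of the 31 members was -0.52 and 28 were below 0, and 1 of them was called lower (Scg3, at -0.97, adjusted p = 0.0984), beside 1.92% of all genes. In that fit the log2 differences of the prompting genes were -1.59 for Cntn2, -1.18 for Nefm and -1.21 for Chgb, and the fold changes of Ina and Elavl3 were -1.06 and -0.92. Those of the other called members were -0.84 for L1cam, -0.59 for Mapt and for Ret, -0.37 for Chga and -0.36 for Ngfr, and the median of the 3 receptors moved from -0.69 to -0.36. The proneural and structural medians were -0.23 and -0.63.

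**Figure D5:**
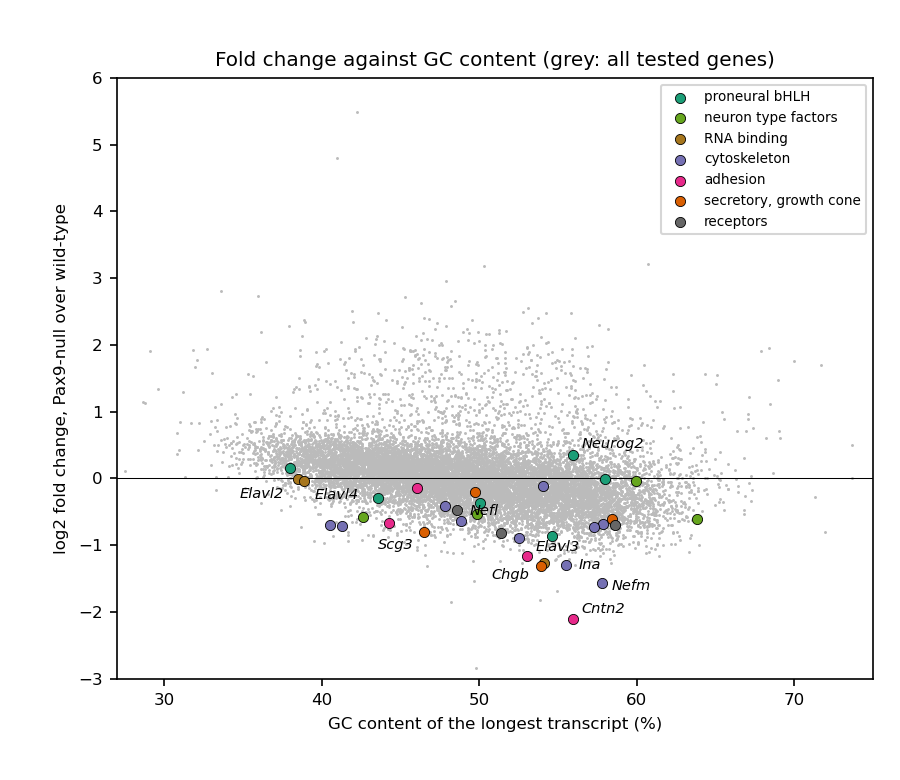
Log2 fold change (Pax9-null over wild-type) against GC content of the longest transcript for the tested genes with an annotation (grey) and the 34 tested members (coloured by role). Elavl2 and Elavl4 lie near 38.5% and 38.9% GC and near no change, whereas Elavl3, Ina, Nefm and Cntn2 lie above the median GC content and at fold changes of -1.27 or lower.

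Other genes used by neurons were taken from 3 further lists, chosen with these data known and described by counts. Whether their RNA came from neurons was not tested. The 14 tested genes of the transition from progenitor to neuron had a median of -0.42. Of these, 5 were called lower and 0 higher, beside 12.0% and 14.7% of all tested genes. Among those called were Myt1, a zinc-finger factor of newly formed neurons, at -0.90 (SE 0.31, adjusted p = 0.0908), Gadd45g at -0.86 and St18 at -0.85. Myt1 was at 0.10 to 0.85 log2 RPKM in Pax9-null and 1.02 to 1.99 in wild-type, with no overlap between the genotypes. All 14 genes were highest of wild-type in replicate 3, and without it 1 of the 14 was called lower, against 6.65% of all genes. After length and GC trends were removed, 0 of the 14 were called lower, beside 1.92% of all genes, and the median was -0.36. In that fit Myt1 was at -0.73, Gadd45g at -1.05 and St18 at -0.99.

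Of 31 tested genes for other parts of the early neuron (tubulins, microtubule and motor proteins, vesicle proteins), 16 were called lower and 0 higher. Over all tested genes 12.0% were called lower and 14.7% higher. All 31 were below 0 and the median was -0.53. Map1a, which binds microtubules, was lowest at -1.20, followed by the axonal kinesins Kif1a at -1.14 and Kif5a at -1.11, and by Map1b at -1.09. None of these 4 overlapped between the genotypes, with Kif1a, for example, at -0.41 to 0.08 log2 RPKM in Pax9-null and 0.73 to 1.09 in wild-type. Without wild-type replicate 3 the median was -0.41 and 9 of 30 were called lower, against 6.65% of all genes. After length and GC trends were removed, 2 of the 31 were called lower, beside 1.92% of all genes, and the median was -0.43. In that fit Map1a was at -0.67, Kif1a at -0.66, Kif5a at -0.77 and Map1b at -0.79. Of the 31, 23 (74.2%) were highest of wild-type in replicate 3. Map1a and Map1b were among the 7 that were highest in replicate 1. The 11 tested neuron type factors and receptors had a median of -0.35 (-0.27 over 10 without wild-type replicate 3). Of these, 2 were called lower, beside 12.0% of all tested genes. Without that replicate 1 was called lower, against 6.65% of all genes. After length and GC trends were removed 0 were called lower, beside 1.92%. The 2 called with all libraries were P2rx3, an ATP receptor of sensory neurons, at -1.01 (SE 0.31, adjusted p = 0.0712) and Gfra1, the GDNF co-receptor that acts with Ret, at -0.87 (SE 0.21, adjusted p = 0.0448). Gfra1 was at 2.01, 1.37 and 1.64 log2 RPKM in Pax9-null and 2.52, 2.28 and 2.83 in wild-type, and the log2 ratio of Ret to Gfra1 overlapped between the genotypes.

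Marker lists of the other tissues in the dissection gave the setting for these values. Of 14 tested neural tube progenitor genes 2 were called lower and 0 higher, beside 12.0% and 14.7% of all tested genes. The median was 0.01. Without wild-type replicate 3, 1 was called lower, against 6.65% of all genes, and the median was 0.23. The summed level of the list was 173 to 190 RPKM in Pax9-null and 167 to 265 in wild-type. Of the 9 cardiomyocyte genes 0 were called by limma (also 0 at an unadjusted p under 0.05), and 9 of 9 were lowest of wild-type in replicate 3. Their median was 0.92 with all libraries and -0.73 without that library, when 3 of the 9 were called lower, against 6.65% of all genes. Of 9 erythroid genes 2 were called higher, beside 14.7% of all tested genes, with a median of 0.59. Their summed level was 2645 to 4909 RPKM in Pax9-null and 2407 to 2504 in wild-type. Without wild-type replicate 3, 0 of the 9 were called, beside 2146 of 13535 genes called lower or higher, while the median was again 0.59. The 8 tested genes of pharyngeal endoderm had a median of 0.06 and 0 calls by limma (1 at an unadjusted p under 0.05). Of 7 endothelial genes 2 were called lower, beside 12.0% of all tested genes, 6 were below 0 and the median was -0.46. When wild-type replicate 3 was left out the endoderm median was -0.04. The endothelial calls were then again 2 of 7, against 6.65% of all genes called lower. The endothelial median was then -0.63, with 7 of 7 below 0, beside -0.35 for the neuronal members. The part of these tissues in the values of the neuronal genes was not tested.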

How the data were processed

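The deposited table gives 1 value per gene and library as log2 RPKM, made by the authors from reads trimmed with Trimmomatic 0.32, filtered to unique, non-redundant reads, sub-sampled, aligned to GRCm38 with STAR (2.5.1a per the labels' processing notes) and counted on Ensembl genes with featureCounts 1.5.1. The labels' extraction text describes sorted TECs and Smart-seq2 libraries, whereas the study's methods describe the whole dissected pharyngeal region and TruSeq libraries. The methods were followed, but the labels leave the material in doubt. Whole reads were recovered from the log2 values with a prior count of 0.5. At GENCODE M21 gene lengths 82.7% to 82.81% of values were whole within 0.05 reads, and 30 of the 37 measured members used those lengths. Tested members had 12 to 2773 reads in a library.

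Pax9-null and wild-type libraries (3 each) were compared with limma 3.58.1 in R 4.3.3 (lmFit, then eBayes with a variance trend, two-sided) over the 13547 genes that averaged 0.5 RPKM or more. Adjustment followed Benjamini and Hochberg over all of them, and genes were called at an adjusted p of at most 0.1. Embryos are separate, but no litter was given. The members and lists were chosen with earlier results of these data known. Per-library values were given for the 3 prompting genes, every called member and the most abundant member of each role, and from 3 lists at most 4 called genes with the largest change were named, except 1 gene that is not reported here. The crest, Nes, Msi1, Sox2 and Pax6 genes named beside them were chosen after their values were seen. Length and GC trends were removed from each library with splines of 5 degrees of freedom on GENCODE M21 lengths and the GC content of the longest transcript. Pseudocounts, filters, scalings, variance models, library weights, a replicate block and leaving out each library were tried as alternatives. The script was tested on simulated data. Motifs were searched in RefSeq promoter windows. No protein sequence was used here.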

Additional observations from a re-analysis of the deposited data

How the results depend on the processing

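The number of members called lower, 8 of 31, was 8 with a pseudocount of 0.1 or 1 RPKM, without the filter and with median centring, 9 with quantile normalization and 10 without the variance trend. It was 13 with library weights, 4 at a threshold of 0.05 and 1 with a filter at 5 RPKM, which removed most members. It was 1 after length and GC trends were removed and 0 when a replicate block was added to that correction. Over the whole table, 3611 genes were called lower or higher in the main fit and 4369 with library weights. Quantile normalization gave 3175 and the fit without the variance trend 2818. The filter at 5 RPKM gave 2751 of 7983. Removing length and GC trends gave 503, or 227 with the replicate block. Leaving out single libraries gave 0 to 12 calls, where 168 and 3579 genes of the whole table were called. Among the Pax9-null libraries it gave 1, 5 and 0 without replicates 1, 2 and 3. It gave 4 when wild-type replicate 3 was dropped. Over the same omissions the median of the proneural factors was -0.34 to 0.11 and that of the structural genes -0.84 to -0.37. The cause was not tested. Correlations of deviations were -0.02, -0.173 and 0.26 between same-numbered libraries of the genotypes and -0.354 to 0.356 between the others. With no litter given, these cannot show whether replicate numbers paired the embryos. The replicate block gave 6 calls among the members and 1377 over the whole table. The direction of 8 uncalled members turned under some alternative, of which Neurog1 (0.19), Nhlh2 (0.038), Elavl2 (0.20) and Stmn4 (0.30) did so without wild-type replicate 3. With length and GC trends removed, with or without the replicate block, Neurod4 was at -0.20, Isl2 at 0.084 and Nrcam at 0.082. Median centring put Elavl4 at 0.0009. Leaving out libraries gave -0.16 to 0.42 for Neurod4, -0.34 to 0.23 for Isl2, -0.27 to 0.23 for Elavl4 and -0.30 to 0.036 for Nrcam. Depth limits the low members: Chga rested on 18 to 35 reads a library and L1cam on 18 to 80.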

Other observations

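Of the 14 tested neural tube progenitor genes, 2 were called lower in Pax9-null embryos, a share near the 12.0% of all tested genes. Nes, which encodes the intermediate filament nestin of neural progenitors and also of other embryonic cells, was at 4.81 ± 0.19 log2 RPKM (SD, n = 3) in Pax9-null and 5.81 ± 0.24 in wild-type with no overlap, a log2 fold change of -1.01 (SE 0.14, adjusted p = 0.0148, limma). The RNA-binding gene Msi1 was at -0.52 (SE 0.14, adjusted p = 0.0525), and at -0.12 (adjusted p = 0.598) after length and GC trends were removed, where Nes was at -0.63 (adjusted p = 0.0540). Sox2 and Pax6, transcription factors of the same progenitors, were not called, with log2 fold changes of 0.26 and 0.25. Among the neural crest genes, Cdh6, a cadherin of early crest cells, was at 2.75, 3.10 and 2.52 in Pax9-null and 3.54, 3.27 and 3.63 in wild-type (log2 fold change -0.69, SE 0.17, adjusted p = 0.0464, limma).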
